A study of Mus musculus with 16 samples.

Results

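The gene set examined here holds proteins that fold, modify, translocate or degrade secretory proteins in the endoplasmic reticulum, together with the sensors and transcription factors of the unfolded protein response. Its 40 members were listed by symbol, with earlier results of these data known. Of them 39 had at least 1 probe set carrying their symbol alone (Ero1l under its current symbol Ero1a), and Srp54a had none. They were read among 18194 genes on 16 one-colour Affymetrix mouse arrays.

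The arrays came from adult male 129BL/6 mice. Animals were castrated or sham-castrated, kept for 14 days, and given an injection whose effect was read 12 h later. Sham-castrated and castrated controls received the vehicle, 100 µL of 10% ethanol in sesame oil, and 2 further castrated groups received 0.015 mg of testosterone propionate (TP) or 0.015 mg of estradiol (E2). The caput epididymis, the first segment of the duct in which sperm mature, and the efferent ducts, the small tubules that join it to the testis, were each profiled with 2 arrays per group, 8 groups in all. The study's design text says that both tissues were taken from each animal sample. It does not say that duplicates were single animals, so p-values measure only the spread between these arrays. Efferent duct RNA (50 ng) and caput RNA (10 µg) were labelled with different kits, so tissue and kit cannot be told apart. In whole tissue, fewer cells of a type and less RNA per cell cannot be told apart either.

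Proteins destined for secretion enter the endoplasmic reticulum through the Sec61 channel, lose their signal peptide, and are folded by BiP (Hspa5) with its co-chaperones, by the lectin chaperones calreticulin and calnexin, and by protein disulfide isomerases. Proteins that fail to fold are drawn back to the cytosol and degraded. When unfolded protein accumulates, the sensors IRE1 (Ern1), PERK (Eif2ak3) and ATF6 raise the transcription of these same genes, in part through a promoter sequence called the endoplasmic reticulum stress response element. Caput principal cells are epithelial cells that secrete large amounts of protein into the duct and depend on androgen.

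The endoplasmic reticulum stress response element is shown first. Of the measured members with a promoter, 5 of 11 with the element and 11 of 23 without it fell in the caput after castration. Over all genes 6.12% fell there (limma, adjusted p under 0.05). RefSeq promoters of build GRCm38.p6, spanning 250 bases before to 50 bases after each transcript start, were found for 35 of the members. The element ERSE (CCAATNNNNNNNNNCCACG), searched on both strands, occurred in the promoters of 9 members and in 0.119% of all 32851 promoters. The shorter form ERSE-II (ATTGGNCCACG) occurred in 2 more members and in 0.0365% of all promoters. The matches of these members, written in the direction of the motif with its fixed boxes in capitals, were as follows.
Hspa5: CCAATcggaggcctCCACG
Hsp90b1, upstream match: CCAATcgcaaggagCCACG
Hsp90b1, downstream match: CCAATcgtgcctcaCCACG
Calr: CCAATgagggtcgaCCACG
Canx: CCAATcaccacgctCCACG
Creld2: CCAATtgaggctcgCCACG
Dnajc3: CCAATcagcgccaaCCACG
Pdia6: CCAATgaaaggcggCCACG
Syvn1: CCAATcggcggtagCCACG
Derl3: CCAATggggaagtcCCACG
Herpud1, ERSE-II: ATTGGgCCACG
Dnajb11, ERSE-II: ATTGGcCCACG

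Further motifs of stress and hormone response were searched in the same way. The UPRE (TGACGTGG) was found in 0 member promoters and in 0.676% of all promoters, and the palindromic androgen response element (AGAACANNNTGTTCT) in 0 and 0.00913%. The amino acid response element (TTGCATCA), bound by ATF4, was found in the Herpud1 promoter only, against 0.895% of all promoters. A match describes letters within these 300 bases and does not show that a factor binds there.

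The 250 bases before the transcript start are printed for 3 members: Hspa5 as the textbook carrier of the element (chr2:34771840-34772089, plus strand), Creld2 as the member with the largest excess of TP over E2 (chr15:88819396-88819645, plus strand), and Herpud1 as the member with ERSE-II that rose above sham levels (chr8:94386179-94386428, plus strand). Capitals mark the boxes of the stress element. In Creld2 the match lies on the opposite strand.
Hspa5: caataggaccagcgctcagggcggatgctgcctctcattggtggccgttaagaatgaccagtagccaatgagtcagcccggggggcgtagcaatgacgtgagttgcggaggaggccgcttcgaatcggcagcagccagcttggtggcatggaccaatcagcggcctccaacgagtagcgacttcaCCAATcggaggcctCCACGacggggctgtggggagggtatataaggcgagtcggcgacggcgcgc
Creld2: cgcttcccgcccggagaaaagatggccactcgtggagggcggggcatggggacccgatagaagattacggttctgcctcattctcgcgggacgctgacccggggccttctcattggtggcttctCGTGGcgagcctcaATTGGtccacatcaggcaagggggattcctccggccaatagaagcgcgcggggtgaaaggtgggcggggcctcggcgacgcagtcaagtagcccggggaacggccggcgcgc
Herpud1: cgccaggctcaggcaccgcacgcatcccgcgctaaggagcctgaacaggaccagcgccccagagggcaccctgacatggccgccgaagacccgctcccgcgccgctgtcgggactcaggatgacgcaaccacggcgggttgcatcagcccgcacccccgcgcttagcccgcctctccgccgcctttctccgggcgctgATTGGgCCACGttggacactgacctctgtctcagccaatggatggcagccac

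**Figure D1:**
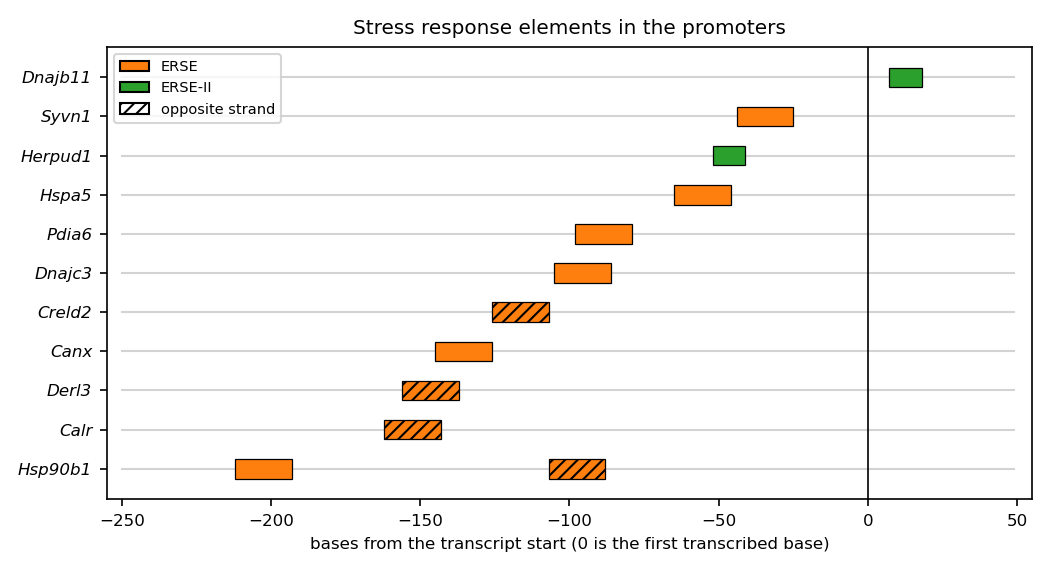
Position of each ERSE (orange) and ERSE-II (green) match in the promoters of 11 members, in bases from the first transcribed base at 0; hatched boxes are matches on the opposite strand. Of the 12 matches, 11 lie before the transcript start, and the match of Dnajb11 lies at bases 7 to 17 after it.

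Castration lowered a number of folding and translocation genes in the caput. Against sham, 17 of 39 members fell and 0 rose, where 6.12% of all genes fell and 7.90% rose (limma, Benjamini-Hochberg adjusted p under 0.05 over all genes). In direction alone 33 members were lower, with a median log2 change of -0.55 against 0.06 over all genes. The number past the threshold rested on all 4 arrays: it was 1 without sham array 1, 3 without sham array 2, 2 without castrated array 1 and 1 without castrated array 2, while the median stayed between -0.57 and -0.55. Other settings gave 11 to 29 calls.

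Among the chaperones and co-chaperones, 6 of 12 fell. Sdf2l1, a stress-induced partner of BiP and its J-domain co-chaperones, read 448 and 304 in intensity on the sham arrays and 105 and 109 on the castrated arrays. It fell 3.46-fold (log2 change -1.79, SE 0.25, adjusted p = 0.016). Every castrated array was below both sham arrays. Manf, a small stress-induced protein of the endoplasmic reticulum lumen, read 4049.9 and 4056 in sham and 1739.8 and 1625 after castration, a 2.41-fold fall (SE 0.106 on the log2 scale, adjusted p = 0.00551). Creld2, a stress-induced protein with isomerase activity, read 1344 and 1450.1 in sham and 665 and 605 after castration, a 2.20-fold fall (adjusted p = 0.00875).

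The other falling chaperone genes moved less. Dnajc3 and Dnajb11, both J-domain co-chaperones of BiP, fell 1.58-fold (from 1587 and 1529 to 932 and 1048) and 1.60-fold (from 512 and 478 to 344 and 276). Mydgf, a secreted growth factor that also resides in the endoplasmic reticulum, fell from 368 and 375 to 204 and 183. BiP itself (Hspa5) read 6632 and 6871 in sham and 4811 and 4942 after castration, without overlap, but its log2 change of -0.47 missed the threshold (adjusted p = 0.0907). Hsp90b1, the endoplasmic reticulum form of HSP90, stood at -0.49 (adjusted p = 0.0843), Calr at -0.78 (adjusted p = 0.0926) and Dnajb9 at -0.44 (adjusted p = 0.0892). Calnexin (Canx) was the only chaperone above sham, by 0.12 (95% interval -0.15 to 0.39). Its other probe sets had changes of -0.15 and -0.33, so its direction depended on the probe set.

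Of the disulfide and proline isomerases, 5 of 8 fell and the other 3 were lower without passing. Pdia5 read 539.8 and 599 in sham and 186 and 171 after castration, a 3.19-fold fall (adjusted p = 0.0111). Pdia6, which also controls the IRE1 sensor, read 3033 and 2767 in sham and 1382 and 1355 after castration, a 2.12-fold fall (adjusted p = 0.00949). Fkbp11, a proline isomerase prominent in secretory cells, fell 2.66-fold, from 395 and 324 to 121 and 149. Pdia3, the partner of the lectin chaperones, fell 1.60-fold from 3764 and 3388 to 2352 and 2124, and P4hb, the founding member of the family, fell 1.51-fold from 3460.0 and 3696 to 2304 and 2437. Over all 8 the log2 change ran from -0.44 for the oxidase Ero1a (352 and 342 in sham, 258 and 253 after castration, adjusted p = 0.0619) to -1.67 for Pdia5.

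Of the 7 sensors and transcription factors of the unfolded protein response 1 fell, and their median log2 change was -0.15. It was Atf4, the factor translated when PERK is active, which went from 1082 and 1059 to 763 and 698 (1.47-fold, adjusted p = 0.0391). Ern1, the IRE1 sensor, read 846 and 887 in sham and 575 and 629.8 after castration (log2 change -0.53, adjusted p = 0.0609). Xbp1, whose mRNA is spliced by IRE1, read 2539 and 2678 in sham and 2699 and 2774 after castration, and the interval of its change ran from -0.21 to 0.35. The intensities do not separate spliced from unspliced Xbp1 mRNA. Ddit3, the transcription factor CHOP, read 184 and 155 in sham and 241 and 267 after castration (log2 change 0.59, adjusted p = 0.0687), but its other probe set had a change of -0.52, so its direction depended on the probe set. Trib3 was not above background on every caput array, and its interval of -1.35 to 1.37 allows no direction.

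Of the 7 degradation genes 2 fell. Syvn1, the membrane ubiquitin ligase HRD1, read 518 and 582 in sham and 375 and 319.7 after castration (1.59-fold, adjusted p = 0.0397), and Derl2, a channel subunit, read 461 and 455 and then 323 and 276 (1.53-fold, adjusted p = 0.0448). Sel1l, the adaptor of that ligase, and Herpud1, which assembles the complex, had log2 changes of 0.18 (-0.17 to 0.53) and 0.19 (-0.09 to 0.46). Their sign depended on the probe set: of the other 4 of Sel1l 3 were lower (-0.22, -0.29 and -1.07) and 1 was higher (0.11), and the other of Herpud1 was at -0.12. Edem1, which marks glycoproteins for disposal, was at -0.03 (-0.40 to 0.35).

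All 5 genes of translocation were lower and 3 fell. Sec61b, a subunit of the channel, read 2188 and 2214 in sham and 1201 and 1110.1 after castration (1.91-fold, adjusted p = 0.0107). Ssr1 and Ssr3, subunits of the translocon-associated TRAP complex, fell 1.74-fold and 1.61-fold. Ssr1 read 1666 and 1772 in sham and 978 and 992 after castration, and Ssr3 read 2973 and 3153 and then 1779 and 2036. The channel-forming Sec61a1 was at -0.46 (adjusted p = 0.0965) and the signal peptidase subunit Spcs2 at -0.50 (adjusted p = 0.0535).

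**Figure D2:**
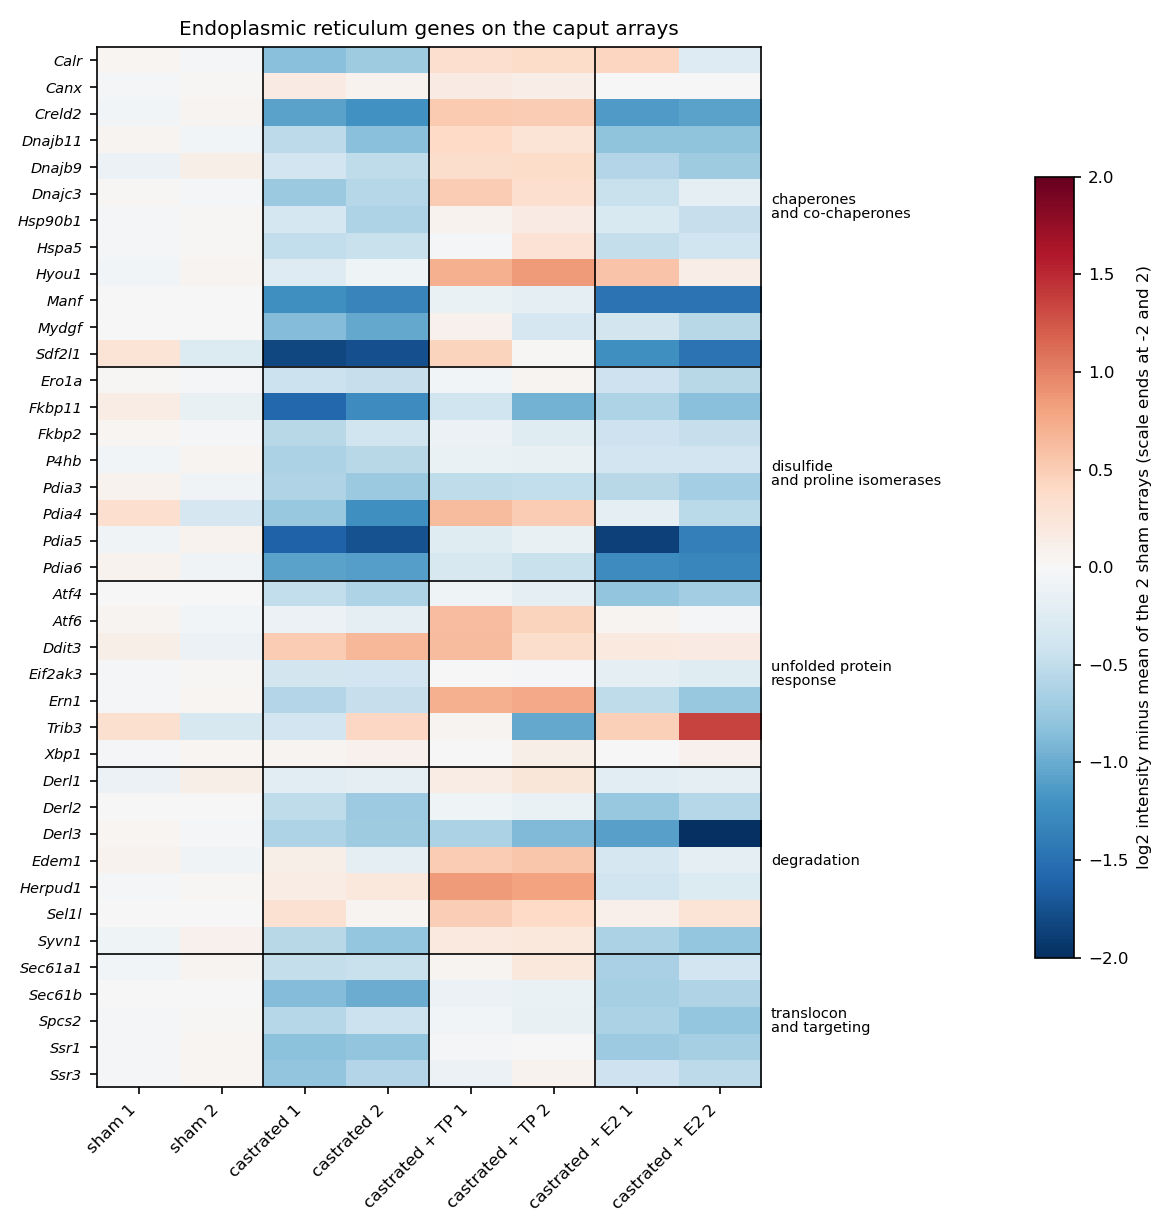
Log2 intensity of the 39 measured members on the 8 caput arrays, minus the mean of the 2 sham arrays, by role; red is above and blue below sham, and the colour scale ends at -2 and 2. The castrated and castrated + E2 columns are mostly blue and the TP columns pale or red, with Canx, Xbp1 and Sel1l pale throughout and Herpud1 and Ern1 red under TP.

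At 12 h, TP had raised a minority of the set in the castrated caput. Against castrated vehicle, 9 of 39 members rose and 0 fell, where 1.02% of all genes rose and 0.649% fell (limma, adjusted p under 0.05). In direction 35 were higher, with a median of 0.64 against -0.05 over all genes. This comparison shares its castrated arrays with the previous one, so their opposite signs are not independent and only each comparison's own values are given. With any 1 of the 4 TP or castrated arrays left out, 0 members passed (medians 0.57 to 0.65), and other settings gave 0 to 30, the lowest with the replicate number as a block.

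The 9 genes were Sdf2l1, Creld2, Manf, Dnajc3, Dnajb11, Pdia5, Ern1, Ssr1 and Sec61b. Sdf2l1 read 505 and 376 under TP against 105 and 109 without hormone, a 4.08-fold rise (log2 change 2.03, SE 0.25, adjusted p = 0.0396). Creld2 read 2004 and 1979 under TP against 665 and 605, a 3.14-fold rise (adjusted p = 0.0147). Both TP arrays of Creld2 were also above both sham arrays (1344 and 1450.1).

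Manf reached 3709 and 3555, a 2.16-fold rise over castrated (adjusted p = 0.0234). Dnajc3 reached 2208 and 1963 against 932 and 1048 (2.11-fold, adjusted p = 0.0451), and Dnajb11 reached 651 and 599 against 344 and 276 (2.02-fold, adjusted p = 0.0495). The TP arrays of these 3 co-chaperone and stress genes stood above every castrated array. Pdia5, alone among the isomerases, passed, with 483 and 514 against 186 and 171 (2.80-fold, adjusted p = 0.043). Pdia4 read 522 and 477 against 198 and 144, but its spread was wide and its 2.95-fold difference missed the threshold (adjusted p = 0.0749).

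Ern1 read 1419 and 1469 under TP against 575 and 629.8, a 2.40-fold rise (adjusted p = 0.0287), and was the only sensor or transcription factor of the response to pass. Atf6 read 446 and 398 against 268 and 258 (log2 change 0.68, adjusted p = 0.0652). The interval for Xbp1 was -0.29 to 0.28, and that for Ddit3 -0.49 to 0.30. Ssr1 (1691 and 1708 against 978 and 992) and Sec61b (2032 and 2012 against 1201 and 1110.1) rose 1.73-fold and 1.75-fold, both with adjusted p = 0.043. Of the degradation genes 0 passed: Syvn1 at 632 and 633 (log2 change 0.87, adjusted p = 0.0572) and Herpud1 at 2019.9 and 1967 (0.64, adjusted p = 0.0626) came nearest. Derl3 stayed at the castrated level, with 539.8 and 455 against 544 and 510.4.

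Estradiol was given at the same dose and read at the same time. Against castrated vehicle, 0 of 39 members passed limma's test, and 0% of all genes did. At an unadjusted p under 0.05 there were 8 of 39 members and 2637 of all 18194 genes, and the other settings called 0 to 2 members. Directions were nearly even, with 21 members higher and a median of 0.03, against 0.01 over all genes. Creld2 read 634 and 666 under E2 and 665 and 605 without it, a log2 change of 0.03 (-0.26 to 0.33). Manf (1451 and 1463) lay below both castrated arrays by 0.21 (-0.48 to 0.06), and Pdia5 (155 and 221) spanned the castrated values. The member nearest to the threshold was Herpud1, at 856 and 928 against 1252 and 1306 (log2 change -0.52, SE 0.11, adjusted p = 0.162). Calr read 4807 on E2 array 1 and 2983 on E2 array 2, the widest gap in the E2 group among the chaperones, and Derl3 read 394 and 191.

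Among the members that passed in none of these comparisons, Hyou1, the nucleotide exchange factor of BiP, read 403 and 432 in sham, 349 and 394 after castration, 684 and 757 under TP and 622 and 459 under E2. Its TP arrays were above every other array. Derl1, a channel subunit of degradation, ranged from 1381 to 1913 over the 8 caput arrays, Fkbp2 from 1026 to 1537 and Eif2ak3 from 253 to 334.

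**Figure D3:**
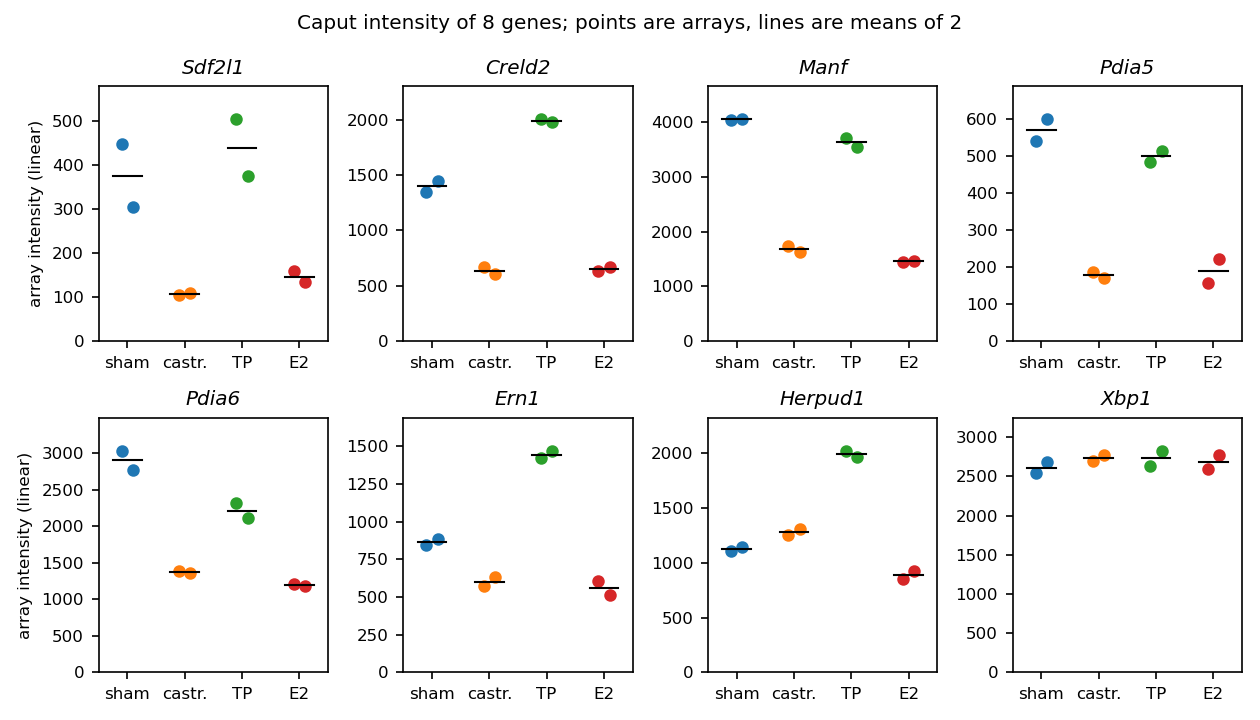
Linear array intensity of 8 members in the 4 caput groups (sham, castrated, castrated + TP, castrated + E2); points are single arrays, lines are means of 2, and each axis starts at 0. In Sdf2l1, Creld2, Manf, Pdia5, Pdia6 and Ern1 both TP arrays lie above all castrated and E2 arrays, Herpud1 is highest under TP and lowest under E2, and Xbp1 is level.

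TP and E2 were also set directly against each other. Of 39 members 8 were higher under TP and 0 were lower, where 1.12% of all genes were higher and 1.00% lower (limma, adjusted p under 0.05). In direction 38 of 39 were higher under TP, with a median of 0.56 against -0.06 over all genes, and Trib3 was the exception at -1.40 (-2.76 to -0.03), near background. Leaving out any 1 of the 4 arrays left 0 past the threshold, with medians of 0.53 to 0.57. Other settings gave 0 to 25 calls, with 0 under the replicate block.

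By role these were 4 chaperones or co-chaperones (Creld2, Manf, Dnajb11, Dnajb9), 2 isomerases (Pdia5, Pdia6), the sensor Ern1 and the degradation factor Herpud1. Creld2 was 3.06-fold higher under TP (2004 and 1979 against 634 and 666, adjusted p = 0.0134), Pdia5 2.69-fold (adjusted p = 0.0393), Ern1 2.59-fold (1419 and 1469 against 608 and 512, adjusted p = 0.0228) and Manf 2.49-fold (adjusted p = 0.0174). Herpud1 was 2.24-fold higher (2019.9 and 1967 against 856 and 928, adjusted p = 0.0213). Dnajb11 was 2.19-fold higher, with 651 and 599 against 284 and 285 (adjusted p = 0.0371).

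Dnajb9, a co-chaperone that is a standard readout of the IRE1 branch, was 2.01-fold higher under TP than under E2 (2063 and 2076 against 1076 and 988, adjusted p = 0.0379). Pdia6 was 1.85-fold higher (2312 and 2117 against 1215 and 1176, adjusted p = 0.0371). Sdf2l1, with the second largest log2 difference (1.58), just missed the threshold (adjusted p = 0.0523), and so did Ssr1 (1.60-fold, adjusted p = 0.0502). The 2 lectin chaperones had small differences, Canx 0.15 (-0.13 to 0.42) and Calr 0.26 (-0.34 to 0.87), and so did Pdia3 (0.12, -0.20 to 0.43) and Xbp1 (0.03, -0.26 to 0.31).

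The members with a stress element in their promoter were read beside the others. All 11 were higher under TP than under E2 and 4 passed the test (Creld2, Dnajb11, Herpud1, Pdia6), with a median of 0.85. Of the 23 measured members with a promoter but neither form of the element, 22 were higher and 3 passed, with a median of 0.49. After castration 5 of the 11 and 11 of the 23 fell, with medians of -0.67 and -0.55. Over all genes 1.12% passed as higher under TP than under E2, and 6.12% fell after castration. The difference between the groups of promoters was not tested, and the members differ in function as well as in sequence.

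Compared with sham, the TP group stood near the intact level and the E2 group below it. These comparisons share arrays with those above. Between TP and sham 4.65% of all genes were higher and 4.51% lower. Near the share of all genes that were higher, 2 of 39 members passed, both higher under TP. They were Herpud1 (2019.9 and 1967 against 1105 and 1143, 1.77-fold, adjusted p = 0.021) and Ern1 (1419 and 1469 against 846 and 887, 1.67-fold, adjusted p = 0.0383), and neither passed when any 1 of the 4 arrays was left out. The other probe set of Herpud1 had a log2 change of 0.32 against sham. Other probe sets of Ern1 above background on all caput arrays had 0.92 and -0.50, so its direction against sham depended on the probe set. For TP against E2 these Ern1 probe sets had 1.17 and 0.06. Creld2 was 1.43-fold above sham (adjusted p = 0.0559), and Pdia3 stayed 1.42-fold below it (adjusted p = 0.0679). The median over the members was 0.11.

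The remaining falling genes can be followed through all groups. Fkbp11 read 270.1 and 186 under TP and 234 and 200.3 under E2, between its castrated and sham values. Pdia3 stayed at 2499.5 and 2531 under TP and 2431 and 2218 under E2, and its TP arrays were below both sham arrays. Mydgf returned to 393 and 294 under TP and read 286 and 254 under E2.

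P4hb read 3272 and 3216 under TP and 2748 and 2736 under E2. Atf4 read 1008 and 939 under TP and 622 and 661 under E2, so its E2 arrays lay below its castrated arrays. Derl2 read 433 and 418 and then 269.6 and 308, and Ssr3 2822 and 3228 and then 2306 and 2130.0. In each of these 4 genes both TP arrays were above both E2 arrays, and 0 of them passed that contrast. Syvn1 read 354 and 321 under E2 (adjusted p = 0.05 against TP, just above the threshold), Sdf2l1 158 and 133, Sec61b 1393 and 1456, Ssr1 1040.3 and 1082, and Dnajc3 1142 and 1364. Dnajb9 had read 1488 and 1744 in sham and 1239 and 1132 after castration.

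Between E2 and sham 17 members were lower and 0 higher, where 7.26% of all genes were lower and 9.99% higher. Of them 12 had also fallen in castrated vehicle, which is 12 of each list of 17. The other 5 were Dnajb9, Ero1a, Ern1, Derl3 and Spcs2. Derl3 read 861 and 811 in sham and 394 and 191 under E2, a 3.04-fold difference (adjusted p = 0.0368). Ero1a read 335 and 361 under TP and 259.8 and 237 under E2, and Spcs2 read 1959.7 and 2031 in sham, 1346 and 1475 after castration, 1925 and 1796 under TP and 1287 and 1166 under E2. Both E2 arrays of Spcs2 were below all its other arrays, while those of Ero1a overlapped its castrated arrays. The count was 3 without sham array 1, 4 without sham array 2 and 5 without either E2 array, and the members' median stayed between -0.54 and -0.45.

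A pair of caput comparisons used no array in common, castrated against sham and TP against E2. Across the 39 members, 33 were lower after castration and higher under TP than under E2, a pattern shown by 23.5% of all genes. The correlation of the 2 log2 changes across members was -0.49 (Pearson) and -0.42 (Spearman). Across all genes Pearson's r was -0.12. Genes are not independent replicates, and it is not known here whether the 4 groups were processed together, so these are descriptions. Sdf2l1, Pdia5, Manf and Creld2 were extreme in both, while Fkbp11 fell 2.66-fold after castration and differed by only 0.05 between the hormones (-0.56 to 0.66).

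**Figure D4:**
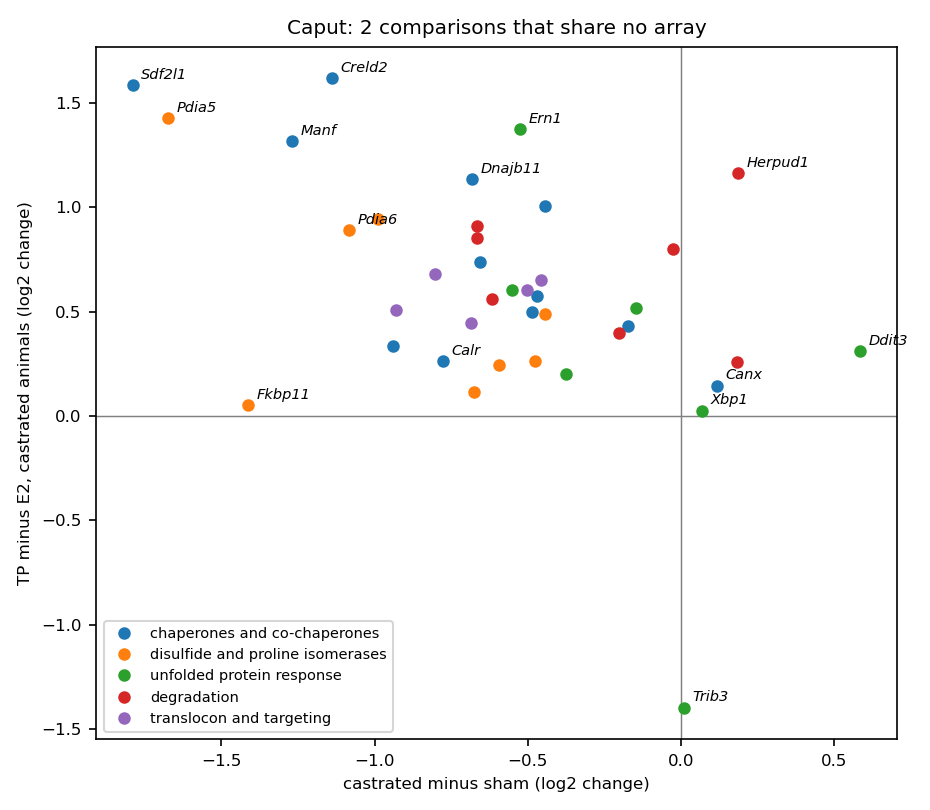
Log2 change after castration (x) against log2 difference of TP and E2 in castrated animals (y) for the 39 members, coloured by role; each point is a gene. Of the 39 points 33 lie in the upper left, Sdf2l1, Pdia5, Creld2 and Manf farthest out, and Trib3 alone lies below 0 on the y axis.

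Further probe sets of the members were compared with those used. There were 49 such probe sets above background on all caput arrays, of 25 members. They had the direction of the probe set used in 35 cases for castration, 39 for TP against castrated, 27 for E2 against castrated and 46 for TP against E2. For the members past the threshold this was 14 of 15 for castration, 9 of 9 for TP against castrated and 4 of 4 for TP against E2. The exception was a probe set of Ssr1, with a log2 change of 0.53 after castration where the one used had -0.80.

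The wider secretory pathway was read from 152 further genes in 7 lists. After castration 41 of them fell and 3 rose, where 6.12% of all genes fell and 7.90% rose, with a median of -0.32 against 0.06 over all genes and 113 lower. TP against castrated gave 12 rises and 0 falls, against 1.02% and 0.649% of all genes, with a median of 0.32, and E2 against castrated 0 of either. In TP against E2, 13 were higher and 1 was lower, against 1.12% and 1.00% of all genes. The counts of the single lists that follow are read against these shares.

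Of 30 genes of vesicle transport between the endoplasmic reticulum and the Golgi 9 fell after castration and 0 rose, and 4 rose under TP. Lman2, a lectin that carries glycoproteins out of the endoplasmic reticulum, had mean intensities of 1013 ± 147 in sham, 303 ± 23.6 in castrated, 978 ± 41.8 under TP and 290.3 ± 26.2 under E2 (SD, n = 2). It fell 3.33-fold after castration (adjusted p = 0.00696) and rose 3.23-fold under TP (adjusted p = 0.0218). The cargo receptor Tmed3 fell 2.33-fold (2752 ± 265 to 1180.1 ± 58.0) and was 1515 ± 171 under TP, where it did not pass (adjusted p = 0.276). Sec23b, a coat protein of the outgoing vesicles, fell 1.77-fold and rose 1.95-fold. Kdelr3, which returns resident proteins to the endoplasmic reticulum, stood 1.06-fold above sham after castration (adjusted p = 0.745) and rose 2.68-fold under TP (adjusted p = 0.0249).

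In translocation and signal peptide processing 8 of 17 fell and 1 rose after castration. Ssr4, a further TRAP subunit, fell 2.42-fold (2927 ± 157 to 1208 ± 48.9) and stayed at 1302 ± 10.8 under TP, the signal peptidase subunit Sec11c fell 1.75-fold, and Sec62 rose 1.68-fold. Srprb, a subunit of the signal recognition particle receptor, fell 1.66-fold and rose 2.20-fold under TP. Among 19 genes of N-glycan transfer and trimming 5 fell, including Rpn2, Dad1 and Ostc of the oligosaccharyltransferase (1.79-fold, 1.80-fold and 1.57-fold). Uggt1, the folding sensor that adds glucose back to unfolded glycoproteins, rose 2.59-fold under TP (361 ± 59.2 to 931 ± 7.32, adjusted p = 0.0396).

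Of 23 other folding enzymes and chaperones 4 fell, among them Rcn1 (2.46-fold), Erp44 (1.74-fold) and Sdf2 (1.66-fold), and Erp44, which retains secretory cargo, rose 1.75-fold under TP. Of 17 further degradation genes Erlec1 and Selenok fell (1.69-fold and 1.73-fold), and Selenos rose 2.49-fold under TP. Of 29 targets of ATF4 and the integrated stress response 11 fell after castration and 1 rose. Phgdh and Psph, enzymes of serine synthesis, fell 3.13-fold and 2.69-fold, Ddit4 fell 2.08-fold, and Stc2 rose 2.02-fold. Under TP 4 rose, led by the mitochondrial folate enzyme Mthfd2, from 224 ± 24.3 to 1150.4 ± 77.5 (5.15-fold, adjusted p = 0.0287), with Phgdh (2.74-fold) and the tryptophan tRNA synthetase Wars (1.88-fold). Of 17 other regulators of the response 2 fell (Rtcb, the ligase that completes Xbp1 splicing, 1.82-fold, and Wfs1, 1.94-fold), Crebrf rose 1.86-fold, and 0 passed under TP.

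Other cell types and array quality moved with these groups. Markers of caput principal cells (8 genes) summed to 60235 to 60800.1 in sham, 6010 to 6284 after castration, 11502 to 15545 under TP and 4704 to 7229 under E2, and 7 of 8 fell after castration. For TP against castrated 2 of the 8 rose and 1 fell, with a median log2 change of 0.27. Adam7, 1 of the 8, went from a mean of 255 in castrated to 6002 under TP, so it made up much of the higher sum. Plasma cells are rich in endoplasmic reticulum, and their 10 markers summed to 1311 to 1492 in sham, 2281 to 3040.2 after castration, 1679.9 to 1769.6 under TP and 2874 to 3037 under E2. Igha and Jchain were the 2 that rose after castration, while Tnfrsf17, Irf4 and Cd79a were below background there. Most of the sum was Sdc1, which epithelia also express, with means of 1214 in sham, 1499.9 after castration, 951 under TP and 1726 under E2. Igha stayed high under TP, at a mean of 480.1 against 33.2 in sham (13.8-fold, adjusted p = 0.0142), and Jchain was 4.48-fold above sham (adjusted p = 0.0414).

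Sperm markers fell in 7 of 8 after castration, and 3 of 9 macrophage markers rose. Adipocyte markers summed to 391 to 429 under TP and 1469 to 2929 under E2. The ratio of 3′ to 5′ Gapdh probe sets, a measure of RNA integrity, was -0.51 and -0.48 on the log2 scale in sham, -0.39 and -0.45 in castrated, -0.21 and -0.14 under TP and -0.37 and -0.33 under E2. The same ratio of actin was 0.636 and 0.751 in sham, 0.790 and 1.02 in castrated, 1.08 and 1.20 under TP and 0.877 and 1.02 under E2. Both ratios were thus highest on the TP arrays and moved with TP against E2. Their part in the changes of the members was not tested. As checks of the treatment, the androgen-induced gene Fkbp5 read 1540.2 and 1715 in sham, 602 and 557 after castration, 1819 and 1717 under TP and 503 and 473 under E2, and the principal cell gene Adam7 fell 33.7-fold after castration and was 23.6-fold higher under TP than in castrated vehicle. Gpx5, Esr1 and Slc9a3 were the other checks: after castration Gpx5 fell 2.62-fold, Esr1 rose 1.82-fold and Slc9a3 did not pass (adjusted p = 0.406).

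In the efferent ducts the set changed less clearly. Between castrated and sham 0 of 39 members passed, and 0.291% of all genes did. An unadjusted p under 0.05 was reached by 8 of 39 members and by 2879 of all 18194 genes, and other settings called 0 to 3 members. In direction 30 members were lower, with a median of -0.26 against 0.02 over all genes. Manf read 584 and 635 in sham and 324 and 271 after castration (log2 change -1.04, SE 0.18, adjusted p = 0.0988), and Pdia6 read 130.5 and 134 and then 64.6 and 74.4 (-0.93, adjusted p = 0.105). Eif2ak3, the PERK sensor, read 130.5 and 120.1 and then 61.7 and 72.2 (-0.91, adjusted p = 0.126). Creld2 read 262 and 272 in sham and 265 and 241 after castration, so the arrays overlapped. The castrated duct arrays differed in the 3′ to 5′ ratios (log2). That of Gapdh was 2.90 and 1.88 in castrated and 1.94 and 1.99 in sham, and that of actin 3.87 and 3.11, and 3.18 and 3.13. The part of RNA integrity in these duct changes was not tested.

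Between TP and E2 in the ducts 0 members passed, and 0% of all genes did. An unadjusted p under 0.05 was reached by 6 of 39 members and by 1467 of all 18194 genes, and every other setting also called 0 members. The median was -0.02. The 6, which did not pass the adjusted test, were Creld2, Sdf2l1, Herpud1, Manf, Pdia6 and Hyou1, each higher under TP. Creld2 read 754 and 689 under TP against 370.0 and 436 under E2 (0.84, 0.40 to 1.29, adjusted p = 0.316), and Herpud1 read 773 and 816 against 506 and 557 (0.58, 0.16 to 1.01). Sdf2l1 read 283 and 134 under TP against 81.4 and 82.7. In each the TP arrays lay above the E2 arrays. Ern1, which rose under TP in the caput, read 406 and 472 under TP and 491 and 567 under E2 in the ducts, an interval of -0.80 to 0.26.

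The order of members by TP against E2 was partly shared by the tissues. Over the 39 members Pearson's r between caput and duct was 0.64 and Spearman's rho 0.57, against r of 0.15 over all genes. The points share the animals' treatments and, per the design text, possibly the animals. Vehicle and hormone arrays of the ducts were not compared, because they stood apart in quality: the 3′ to 5′ actin ratio was 3.11 to 3.87 (log2) on vehicle arrays and 0.913 to 1.93 on hormone arrays, and the background intensity 8.09 to 14.3 against 2.33 to 3.97. Of 8 markers of duct epithelium, 8 were above background on at least 1 array of each duct group. In each caput group 7 were, so this count does not identify the tissue. Their summed intensity was 6397 to 6585 in sham duct and 1612 to 1664 in sham caput. Caput principal cell markers were also present in the ducts, at a sum of 5370.4 to 8980 in sham, 57.4 to 149 after castration, 341 to 2228 under TP and 121 to 706 under E2. Their part in the duct values was not tested.

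**Figure D5:**
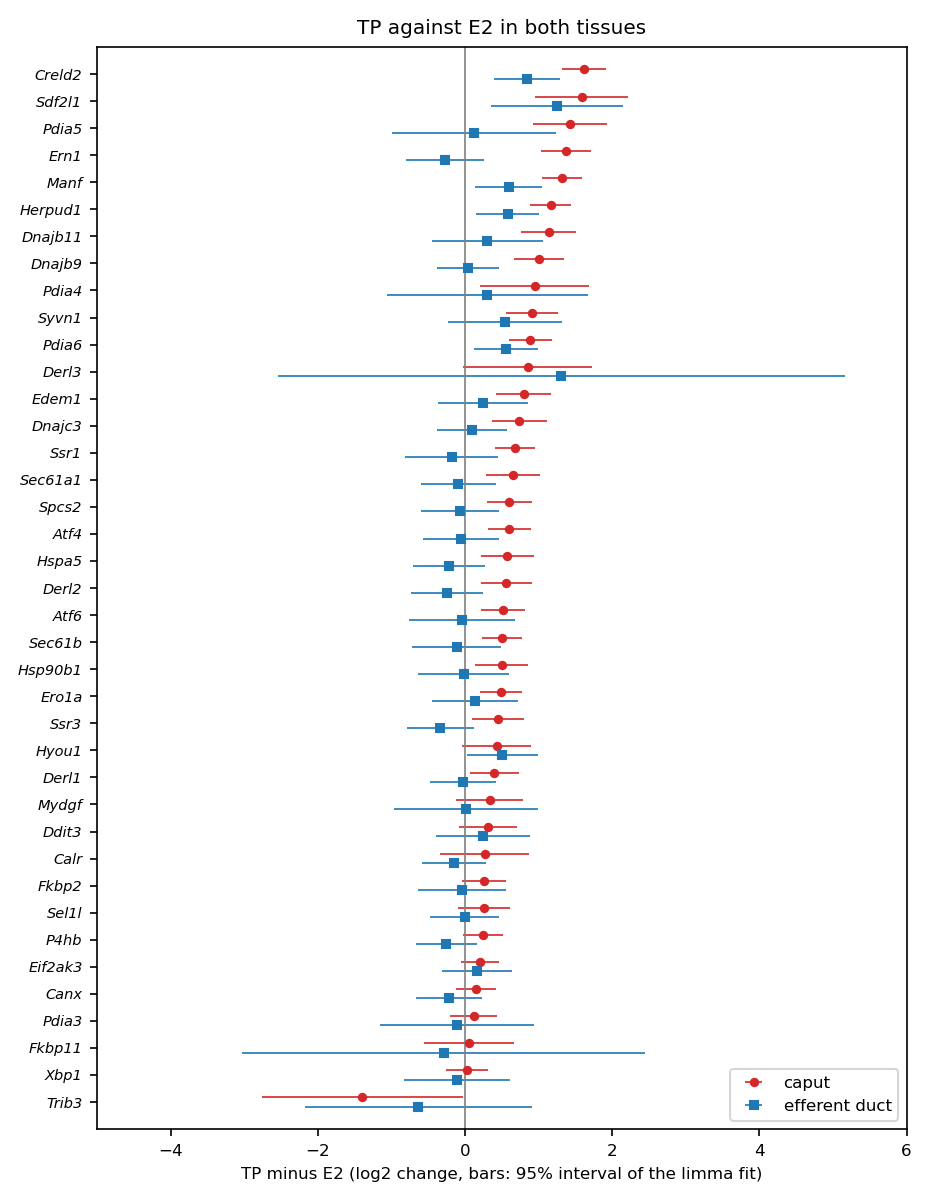
Log2 difference between TP and E2 in the caput (red circles) and the efferent ducts (blue squares) for each of the 39 members, with the 95% interval of the limma fit. In the caput 38 of 39 values are above 0; in the ducts the values spread around 0 with a median of -0.02, and Creld2, Sdf2l1, Manf, Herpud1, Pdia6 and Hyou1 have intervals above 0 in the ducts.

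The difference between the tissues was tested itself. For castration against sham, 1 member passed, Creld2, whose change was 1.06 log2 units higher in the duct than in the caput (0.64 to 1.47, adjusted p = 0.0229), where 1.27% of all genes passed higher and 1.96% lower. Creld2 still passed without sham duct array 2 or either castrated duct array, where 2 or 3 members did, and 0 members passed without sham duct array 1 or any 1 of the 4 caput arrays. For TP against E2, 0 members passed and 0.0495% of all genes did. There 36 of 39 differences were lower in the duct, against 44.6% of all genes, with a median of -0.52 against 0.07 over all genes. An unadjusted p under 0.05 was reached by 17 members and by 1690 of all 18194 genes. The nearest was Ern1 at -1.64 (-2.17 to -1.11, adjusted p = 0.0813), followed by Dnajb9 at -0.96 (adjusted p = 0.149). Other settings called 0 to 6. In these differences tissue and labelling kit cannot be told apart. The hormone arrays also differed in range. Their brightest probe set read 3218 to 4517 in the duct and 8603 to 12111 in the caput, and their background 2.33 to 3.97 and 8.48 to 12.2. The part of this in the differences was not tested.

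In sham animals the set was lower in the duct than in the caput. Of 39 members 28 were lower and 3 higher, where 31.0% of all genes were lower and 23.4% higher, with a median of -1.40 against -0.30 over all genes. Pdia6 read 130.5 and 134 in sham duct and 3033 and 2767 in sham caput, a 21.9-fold difference, and Xbp1 read 200.5 and 271 against 2539 and 2678, an 11.2-fold difference. Derl3 read 19.0 and 18.3 in the duct against 861 and 811 in the caput. Derl2 (1638 and 1478 against 461 and 455), Ero1a and Sel1l were higher in the duct. Fkbp11 was not above background on 1 of the 2 sham duct arrays. Labelling kits and amounts of RNA differed between the tissues, so these differences cannot be told apart from the labelling. When a gene's probe sets were averaged, the direction turned for Ero1a, Sel1l, Canx, Ssr1 and Eif2ak3.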

How the data were processed

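Gene expression was measured on 16 one-colour Affymetrix arrays, 8 per tissue and 2 per group. The deposited values are linear intensities, scaled by the authors so that the mean of each array, trimmed by 2% at each end, is 125. The submitters' processing notes name RMA without a version, which gives log2 values, so the step that made the linear scale is not given in the sources used here. GEO's platform annotation gave 34958 of 45101 probe sets 1 gene symbol, 932 several and 9211 none. Of these, the brightest probe set per gene (mean over all 16 arrays) was kept for 18194 genes. A value above the brightest of 27 bacterial control probe sets of its array counted as above background. All but Trib3 of the 39 measured members were above it on every caput array, and 36 on every duct array (not Derl3, Fkbp11 and Trib3).

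Linear models on the log2 intensities (limma 3.58.1, R 4.3.3) covered the 4 groups of each tissue, or all 16 arrays for contrasts of tissues, and p-values were adjusted by the Benjamini-Hochberg method over all genes, with a threshold of 0.05 and 95% intervals. The number of arrays limits the precision. Adjusted p in the text come from these fits. As a check of the code, the fit was also run on simulated arrays with independent noise, which does not test the calls reported here. Tables and figures were made with Python 3.11.15, pandas 2.3.3 and matplotlib 3.10.9. Promoter windows came from RefSeq, build GRCm38.p6.

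Members, pathway lists and marker lists were chosen with earlier results of these data known. Values on every caput array are given for members past the test in any caput comparison. Of the pathway lists, up to 3 genes per list and direction with the smallest adjusted p are named. Fkbp5, Esr1, Gpx5, Adam7 and Slc9a3 were fixed checks. Alternatives were a filter on dim genes, a floor of 16, averaging of a gene's probe sets, quantile normalization, a variance prior with an intensity trend, a replicate block, and the omission of each array in turn. Srp54a was not analysed here, and hormone and vehicle arrays of the ducts were not compared.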

Additional observations from a re-analysis of the deposited data

Results flagged for a closer look

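Creld2 was the 1 of 39 members whose response to castration passed the test of a difference between the tissues. Of all genes 1.27% passed higher and 1.96% lower, so 1 member is near the share of all genes. The log2 change of Creld2 from sham to castrated was 1.06 higher in the efferent duct (-0.08) than in the caput (-1.14). By limma's test of the difference over all genes the adjusted p was 0.0229. In the caput both castrated arrays were below both sham arrays, whereas in the duct the arrays overlapped. Tissue and labelling kit cannot be told apart. The 3′ to 5′ actin ratio (log2) was 3.11 to 3.87 on the duct vehicle arrays and 0.636 to 1.02 on the caput vehicle arrays. The difference kept its sign under every alternative run, with adjusted p between 0.00177 and 0.0869.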

How the results depend on the processing

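The direction of the members' medians held under all alternatives for castration, TP against castrated and TP against E2 in the caput, while the number past the threshold did not. The causes were not tested. Without the 40% dimmest genes, which also leaves fewer genes to adjust over, 29 members passed for castration in the caput, 27 for TP against castrated, 1 for E2 against castrated, 21 for TP against E2, 11 for TP against sham, 3 for castration in the duct, and 5 and 2 for the tissue differences in castration and in TP against E2. An intensity trend in the variance prior gave 29, 30, 2, 25, 13, 3, 7 and 2 in that order, and 26 for E2 against sham. Values under 16 set to 16 gave 19 for TP against castrated, 1 for E2 against castrated, 17 for TP against E2, 7 for TP against sham, 2 for castration in the duct, and 10 and 6 for the tissue differences. The mean of all probe sets gave 11 for castration, 3 for TP against castrated, 3 for TP against E2 and 0 for TP against sham. Quantile normalization gave 0 for the tissue difference in castration, and moved the median of all genes between sham duct and sham caput from -0.30 to -0.07.

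The difference between the replicates of a group was correlated with that of another group, gene by gene. Over 16 pairs of groups these correlations lay between -0.048 and 0.065. They cannot show whether same-numbered samples were paired, because paired samples need not share such differences. With the replicate block, 11 members passed for castration, 0 for TP against castrated, 0 for TP against E2 and 1 for TP against sham.

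Leaving out 1 array gave 1 to 3 members for castration, 0 for TP against castrated, TP against E2 and TP against sham, 3 to 5 for E2 against sham, and 0 to 3 for the tissue difference in castration. With the mean of all probe sets, the log2 difference between sham duct and sham caput changed sign for Canx (-0.55), Eif2ak3 (0.057), Sel1l (-2.68), Ero1a (-0.24) and Ssr1 (-1.27). Over all genes, TP against castrated gave 304 calls (7 with the block) and TP against E2 386 (9 with the block). Dim members such as Trib3, and Derl3 and Fkbp11 in the duct, were not above background on every array. The part of low signal in their results was not tested.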

Other observations

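Outside the members, 18 measured genes had ERSE or ERSE-II in the same promoter window. After castration 4 of them fell in the caput by limma's test: Adcy3 (log2 change -1.14, adjusted p = 0.041), Krtcap2 (-0.79, adjusted p = 0.0406), Lgalsl (-1.07, adjusted p = 0.0111) and Nucb1, a calcium-binding protein of the Golgi (-0.69, adjusted p = 0.0209). Over all genes 6.12% fell. Of the 18, 12 were lower, with a median of -0.46, against 45.9% and 0.06 over all genes. In each comparison given here 4930402F11Rik, Acnat2, Ptgdr2, Tdrd9 and Zfp57 were not above background on all arrays, and they enter the medians. Krtcap2 and Ero1b are also among the 152 pathway genes counted above. For TP against castrated 0 passed, where 1.02% of all genes rose. The median was -0.04, with 8 higher and 10 lower, where the 11 members with an element had a median of 0.69. The extremes, Rnf151 at -2.85 and Zfp57 at 2.28, were not above background on all of these arrays. Ero1b, Krtcap2 and Alg12, which were above it, stood at 0.86, 0.85 and 0.66 without passing. For TP against E2, 1 of the 18 passed as higher, where 1.12% of all genes did, and the median was 0.02. It was Ero1b, an oxidase of the endoplasmic reticulum related to Ero1a (1.14, adjusted p = 0.0416).

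Stc2, a secreted glycoprotein, is listed among the ATF4 targets, of which it was the 1 that rose after castration. Its mean caput intensity was 70.1 ± 11.2 in sham, 141 ± 10.1 in castrated, 139 ± 28.1 under TP and 454 ± 24.8 under E2 (SD, n = 2). It was lower under TP than under E2 by limma's test (log2 difference -1.72, adjusted p = 0.0304), and its excess under E2 over castrated vehicle did not pass (1.69, adjusted p = 0.0741).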
